A study of Taeniopygia guttata with 8 samples.

Results

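Of the 35958 genomic regions in the deposited H3K27ac table, 1549 regions, 4.31%, spanned more than 4000 bp. They were selected by width alone, as every region whose end minus start exceeded 4000 bp on any chromosome, and are called broad acetylated domains here. H3K27ac is histone H3 acetylated at lysine 27. It had been mapped by ChIP-seq, the sequencing of DNA from immunoprecipitated chromatin, in 2 song nuclei of adult male zebra finches (Taeniopygia guttata). RA, the robust nucleus of the arcopallium, is a pallial motor nucleus that drives the vocal output, and Area X is a striatal nucleus of the song-learning circuit. Birds had been kept in sound-attenuated chambers and were either silent or singing before the brain was taken, with singing labelled as 2 hours. No genotype or transgene is named in the labels, and no exact age beyond adult.

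Each pool combined dissected tissue of 6 birds, and the labels state 18 birds and 3 pools per behaviour. The count table holds 3 silent and 4 singing libraries per nucleus, 14 in all. No label says where the fourth singing library came from. Each numbered library was treated as a pool of its own, and if some are repeats of a pool, part of the spread behind the p-values is technical. The words minus and plus in the column names were read as silent and singing, and the direction of each behaviour comparison rests on that reading.

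H3K27ac is laid down by acetyltransferases that are recruited to active promoters and enhancers, and it is removed by histone deacetylases. In mammals, unusually wide stretches of the mark are known from clusters of neighbouring enhancers and from the promoters of highly transcribed genes, often genes that define a cell type; they are referred to as stretch enhancers or super-enhancers. In neurons the mark is known to respond to activity at a subset of enhancers. The nuclei differ in their principal neurons: RA is dominated by glutamatergic projection neurons of the pallium, and Area X by GABAergic medium spiny neurons of the striatum. A dissected nucleus also contains glia and other neurons, and in such bulk tissue fewer cells of a type cannot be told apart from less acetylation per cell.

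The domains were up to 30851 bp wide, with a median of 5354 bp and quartiles of 4550 and 6952 bp. Most lay near the lower end of this range. Of the domains 617 were up to 5000 bp wide, 353 were over 5000 and up to 6000 bp, 311 were over 6000 and up to 8000 bp and 268 were over 8000 bp, while 134 exceeded 10000 bp and 11 exceeded 20000 bp. Together they covered 9.79 Mb, which was 22.1% of the length covered by all regions. How the regions were called, and from which libraries, is not stated, so the widths are the authors' and cannot be told apart from the calling. The genome build is not given either, so domains are named by position (1-based starts) and not by gene, and markers of the nuclei or of glia were not checked.

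Domains just inside and just outside the 4000 bp limit are given as a description. The narrowest domain was chr8:22350073-22354073, where the level was 38.1 ± 17.8 CPM in RA and 62.9 ± 23.6 CPM in Area X (SD, n = 7 libraries each). CPM here means counts per 1e6 reads in regions, after TMM scaling between libraries. The widest region outside the limit was chr15:7336496-7340495 at 4000 bp, with 117 ± 49.8 CPM in RA and 50.7 ± 6.27 CPM in Area X.

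All 1549 domains passed the filter on low counts, and none had 0 reads in any library. The reads in domains numbered from 0.0562 M (1e6 reads) in RA singing 4 to 3.25 M in Area X silent 3. The median domain held 29 reads in RA singing 4, the shallowest library, and 1691 in Area X silent 3. Over libraries this median was 1041 ± 365 reads in Area X and, in RA, 483 ± 362 reads (SD, 7 libraries each), so RA values carried more counting error.

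In 2 RA libraries the order of the domains by signal was closer to Area X than to the other RA libraries. RA silent 2 had a median Spearman coefficient over the domains of 0.845 to Area X libraries and 0.627 to RA libraries, with Area X silent 1 as the closest at 0.935. RA singing 4 had 0.807 to Area X and 0.521 to RA. The remaining RA libraries were less like Area X. RA silent 1, RA silent 3 and RA singing 1 had medians to Area X of 0.130, 0.115 and 0.149, while RA singing 2 and RA singing 3 had 0.506 and 0.296. The libraries with the highest coefficient of all were RA silent 1 and RA singing 1, which differ in behaviour, at 0.989. The main counts of domains that differed between nuclei are given below with and without these 2 libraries. Both were picked for their likeness to Area X over these same domains, so leaving them out favours larger differences between nuclei.

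Per kb, signal rose with width in Area X, whereas in RA the mean of the library medians was nearly level from 1000 to 5000 bp and higher in the widest domains. The density of a domain had a median of 25 CPM per kb over the domains, with 5% below 14 and 5% above 48.0, and a range of 8.96 to 85.0 CPM per kb. Of the domains, 368, or 23.8%, were among the densest 10% of all regions. In RA, the library median was 14.8 ± 2.6 CPM per kb for regions up to 500 bp, 18.6 ± 1.5 for regions over 1000 and up to 2000 bp, 18.0 ± 1.6 for regions over 2000 and up to 4000 bp (the next narrower class), 18.8 ± 2.6 for domains up to 5000 bp and 23.4 ± 2.9 for domains over 8000 bp (SD, n = 7). In Area X these medians were 13 ± 0.35, 19.9 ± 2.3, 23.6 ± 5.2, 28.5 ± 7.2 and 35.7 ± 8.9 CPM per kb. In RA silent 1 and RA singing 1 the median over all domains, 15.5 and 16.3 CPM per kb, was below the 18.7 and 19.3 of regions over 1000 and up to 2000 bp. Over all domains, the medians of single libraries lay between 15.5 and 23.3 CPM per kb in RA and between 21.3 and 41.1 in Area X. The ranges overlapped through the number 1 libraries of Area X, at 23.0 CPM per kb in the silent and 21.3 in the singing library.

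**Figure D1:**
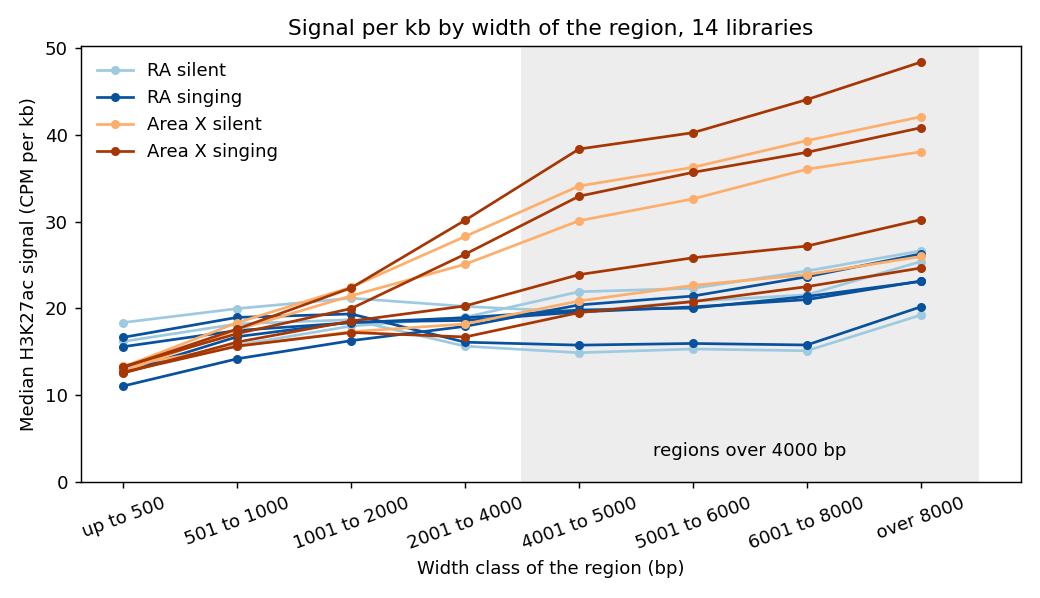
Median H3K27ac signal per kb (CPM per kb, vertical axis) of the regions in 8 width classes (bp, horizontal axis), with a line for each of the 14 libraries, coloured by nucleus and behaviour; the shaded classes are the domains over 4000 bp. RA lines stay between 14.9 and 26.6 CPM per kb in the shaded classes, and 5 of the 7 Area X lines lie above them in the widest class.

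The densest domains were strong in both nuclei. At chr1A:12800205-12804290, the densest of all at 85.0 CPM per kb, RA silent libraries had 291, 355 and 393 CPM and RA singing libraries 259.9, 296, 235 and 322 CPM. Area X silent libraries had 301, 396 and 477 CPM there, and Area X singing libraries 321, 337, 471 and 365 CPM. The ranges of the nuclei overlapped, and the difference did not pass the test (log2 fold change of Area X against RA 0.30, SE 0.17, edgeR adjusted p = 0.143). The domain chr5:39274758-39279114, at 66.6 CPM per kb, did not pass either (log2 fold change -0.22, adjusted p = 0.296). The other 3 of the 5 densest domains were higher in Area X. At chr14:8970633-8982407, which is 11775 bp wide, the level was 511 ± 128 CPM in RA and 1007 ± 146 CPM in Area X (n = 7 libraries each, SD), a 1.99-fold difference (edgeR adjusted p = 0.00119). The folds at chr2:79898596-79902778 and chr1A:61651831-61656814 were 1.63 and 1.44 (adjusted p = 0.00538 and 0.0371).

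Signal was spread over many domains. The 155 domains with the most signal held 26.2% of the signal in domains. Across domains, log2 density in RA and in Area X correlated weakly (Pearson's r = 0.17 over 1549 domains, from the same 14 libraries), and over the 4071 regions of the next narrower class r was 0.26. These values describe the domains, which are not independent replicates.

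The first comparison asked whether the domains held a different share of the acetylated signal in the 2 nuclei. The share of reads in domains was 20.4%, 26.7% and 23.6% in RA silent 1 to 3, and 20.7%, 24.1%, 24.5% and 27.8% in RA singing 1 to 4. It was 26.9%, 29.3% and 30.7% in Area X silent 1 to 3, and 25.6%, 27.6%, 31.9% and 31.4% in Area X singing 1 to 4. The highest RA libraries were RA singing 4 and RA silent 2, and they overlapped with the lowest Area X libraries. RA singing 4 lay above the number 1 libraries of Area X and just above Area X singing 2, and RA silent 2 lay above Area X singing 1. Means were 29.0% ± 2.4 for Area X and 24.0% ± 2.8 for RA (SD, n = 7 each). The difference of these means passed (exact two-sided permutation test, p = 0.00408, adjusted p = 0.0102 over 5 comparisons of read shares). The difference was 5.09 percentage points, and 6.39 without RA silent 2 and RA singing 4, whose choice favours a larger difference. Widths come from region calling in unstated libraries, and the part of the calling and of depth in this difference was not tested.

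A ratio within each library does not depend on scaling between libraries. The log2 ratio of reads in domains to reads in the next narrower class was 0.14 ± 0.06 for Area X and -0.04 ± 0.10 for RA (SD, n = 7 each, exact two-sided permutation test, p = 0.00291, adjusted p = 0.0102). Relative to the next narrower class, domains thus held more reads in Area X than in RA. The limit set by the unstated calling holds for this ratio too. Within silent birds the same ratio was 0.13 and -0.06 (n = 3 each, exact permutation p = 0.1, the smallest this design allows), and within singing birds 0.15 and -0.03 (n = 4 each, exact permutation p = 0.0571). The log2 ratio of reads in domains over 8000 bp to reads in domains up to 5000 bp was 0.41 ± 0.02 in Area X and 0.39 ± 0.03 in RA, which did not pass (n = 7 each, exact permutation p = 0.0804, adjusted p = 0.134). Without RA silent 2 and RA singing 4, this last difference had an unadjusted exact permutation p of 0.048. As that choice favours a difference, this value is a description.

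**Figure D2:**
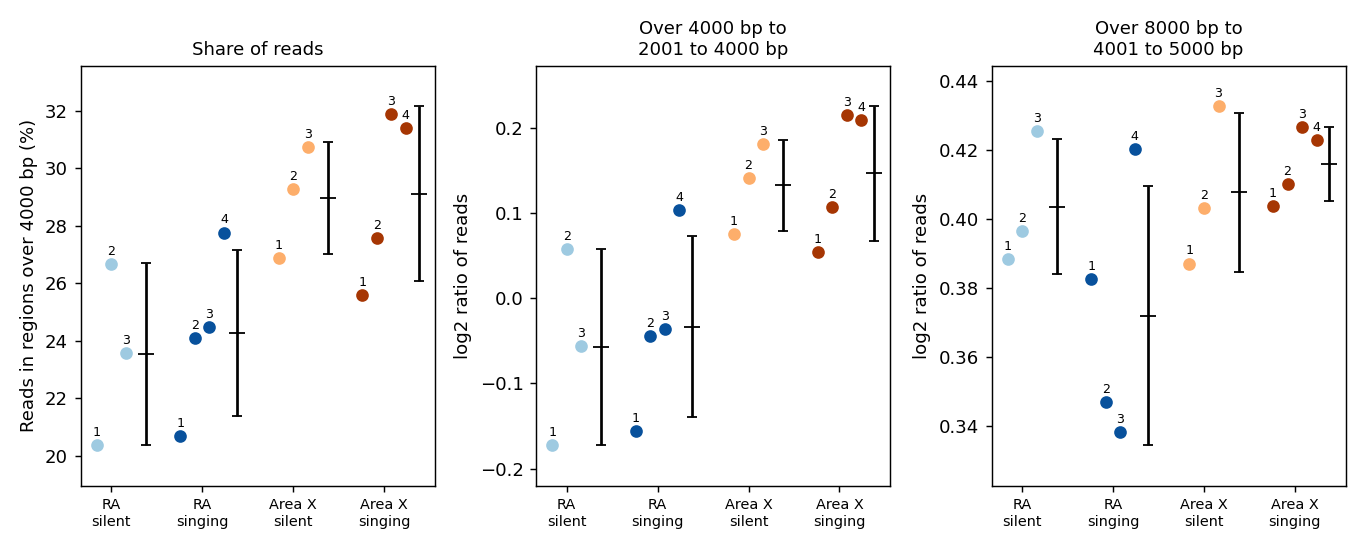
For each library (numbered points) of the 4 groups, the left panel gives the share of reads in domains over 4000 bp (%), the middle panel the log2 ratio of reads in domains to reads in regions over 2000 and up to 4000 bp, and the right panel the log2 ratio of reads in domains over 8000 bp to domains up to 5000 bp; black bars are the group mean and SD. Area X libraries lie between 25.6% and 31.9% in the left panel and RA libraries between 20.4% and 27.8%.

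The second comparison asked which domains differed between RA and Area X. Most domains did, and most of these were higher in Area X. Averaged over behaviour, 964 domains, 62.2%, were higher in Area X, against 28.5% of all 35954 regions tested. In the other direction 316 domains, 20.4%, were higher in RA, against 25.3% of all regions (edgeR quasi-likelihood test, Benjamini-Hochberg adjusted over all regions, threshold 0.05). The remaining 269 domains did not pass. The median log2 fold change of Area X against RA was 0.86 over the domains, 0.54 over the next narrower class, -0.31 over regions up to 500 bp and -0.04 over all regions.

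The differences were mostly moderate. Among domains higher in Area X, the median fold was 2.33, 674 exceeded 2-fold and 9 exceeded 4-fold. Among domains higher in RA, the median fold was 2.07, 181 exceeded 2-fold and 7 exceeded 4-fold. The domains higher in Area X had a median density of 37.5 CPM per kb in Area X and 17.1 in RA. The domains higher in RA had 23.6 CPM per kb in RA and 11.6 in Area X. In 254 domains every Area X library was above every RA library, against 4.38% of all regions, and in 128 every RA library was above every Area X library, against 3.67% of all regions. Without RA silent 2 and RA singing 4 these counts were 642 and 275, against 12.9% and 13.4% of all regions, and 796 and 232 called domains exceeded 2-fold. How many of all called regions exceeded 2-fold, in that fit or with all libraries, is not given here. With all libraries, the 95% confidence interval of the difference lay within 2-fold either way in 338 domains, 21.8%. This stood against 26.4% of all regions and 26.0% of the next narrower class. Estimates over 2-fold in either direction numbered 855 of the 1549 domains and 15357 of the 35954 regions tested.

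**Figure D3:**
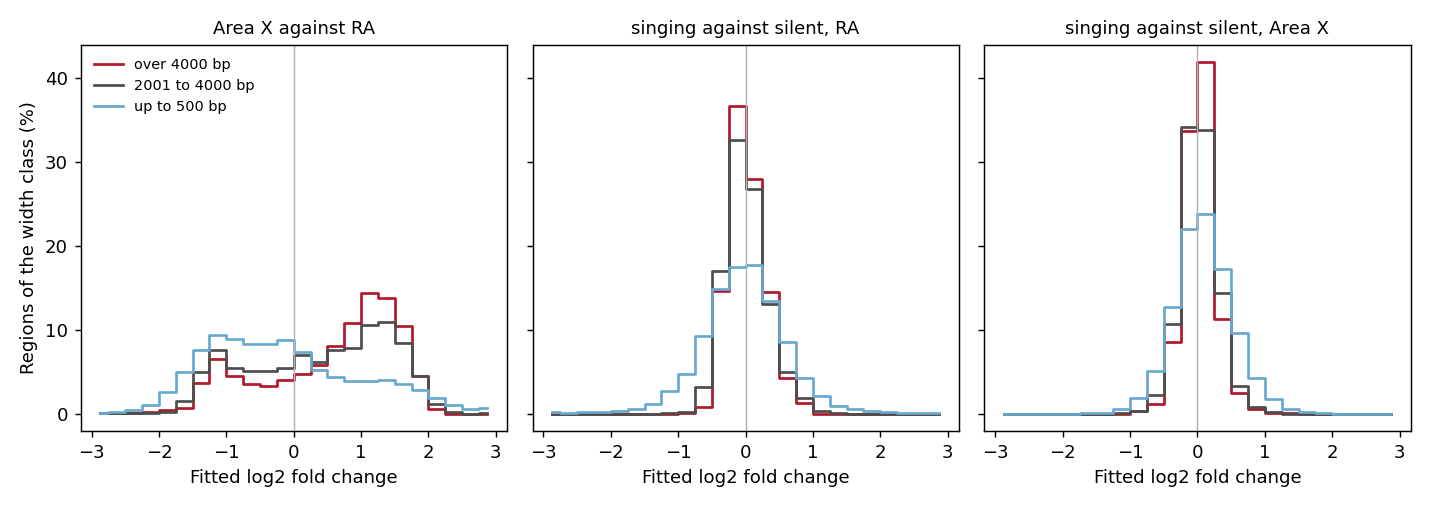
Distribution of fitted log2 fold changes (horizontal axis) as the share of regions of a width class (%, vertical axis), for domains over 4000 bp, regions over 2000 and up to 4000 bp and regions up to 500 bp, in 3 comparisons. For Area X against RA the domains peak between 1 and 1.5 with a smaller peak near -1, whereas for singing against silent in either nucleus they gather around 0, more tightly than narrower regions.

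The balance of directions depended on scaling. With total counts in place of TMM, by which all regions together shifted to a median log2 fold change of -0.35, 801 domains (51.7%) were called toward Area X and 392 (25.3%) toward RA, against 19.6% and 34.2% of all regions. With TMM factors from the domains alone, 529 (34.2%) and 512 (33.1%) were called, against 9.32% and 48.0% of all regions. With signal-dependent scaling, in which each library was fitted by a loess curve against mean signal, 575 (37.1%) and 514 (33.2%) were called, against 26.3% and 22.2% of all regions. The median log2 fold change of the domains was 0.53, 0.14 and 0.16 under these scalings and 0.82 with DESeq2 size factors, so each moved the domains toward RA. Calls toward Area X could thus be lost, and 502 of the 964 were made under all 5 scalings, while calls toward RA could hardly be. Of the 964, 9 were called higher in RA under at least 1 scaling. Without RA silent 2 and RA singing 4, 990 (63.9%) and 338 (21.8%) domains were called, against 30.6% and 29.1% of all regions. In all 14 fits that left out a library, 820 of the 964 and 288 of the 316 were called in the same direction. The share of all called regions that kept their call in these fits, or under all 5 scalings, is not given here. Whether the kept shares are particular to the domains was not tested. Reads were fewer in RA than in Area X, as given above, and the part of depth in these counts was not tested.

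The strongest differences toward RA included 3 domains close together on chromosome 10. At chr10:16338824-16344742 (5919 bp), RA silent libraries had 116, 73.3 and 163 CPM and RA singing libraries 120, 85.1, 136 and 34.8 CPM. Area X silent libraries had 26.5, 3.88 and 4.05 CPM, and Area X singing libraries 20.9, 26.8, 12.8 and 9.71 CPM. No library overlapped, although RA singing 4 came close to the highest Area X libraries. The fold toward RA was 7.61, the largest of all domains in either direction (edgeR log2 fold change -2.93, SE 0.43, adjusted p = 0.000741).

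At chr10:16288688-16295073 (6386 bp), RA silent libraries had 173, 99.8 and 271 CPM, RA singing libraries 174, 162, 188 and 104 CPM, Area X silent libraries 32, 13.2 and 10.7 CPM, and Area X singing libraries 30.2, 43.2, 23.4 and 20.1 CPM. The lowest RA library, RA silent 2, was still above the highest Area X library. The fold toward RA was 7.30 (log2 fold change -2.87, SE 0.30, edgeR adjusted p = 8.83e-05). The third domain of this stretch, chr10:16279441-16284528, differed by 4.07-fold, with 26.0 ± 10.0 CPM in Area X and 101 ± 39.6 in RA (SD over 7 libraries each, adjusted p = 0.00058).

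On chromosome Z, chrZ:14099524-14105208 (5685 bp) had 131, 92.8 and 236 CPM in RA silent libraries and 119, 115, 114 and 130 CPM in RA singing libraries. It had 31.8, 9.34 and 11.1 CPM in Area X silent libraries and 28.8, 28.3, 21.5 and 21.0 CPM in Area X singing libraries. RA singing 4 did not stand apart from the other RA singing libraries here. The fold toward RA was 6.51 (log2 fold change -2.70, SE 0.29, edgeR adjusted p = 8.83e-05). The other 4 of the 8 domains with the largest folds toward RA whose libraries did not overlap were chr8:4779790-4784948 at 5.48-fold, chr12:13915363-13921981 at 4.68-fold, chrZ:12116277-12120280 at 3.95-fold and chr20:10016838-10021097 at 3.84-fold. Of these, chr12:13915363-13921981 had the highest level, with 234 ± 91.4 CPM in RA and 52.7 ± 17.2 CPM in Area X (SD, n = 7 each, adjusted p = 0.000291).

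Toward Area X, neighbouring domains on chromosome 7 stood out. At chr7:37217763-37225084 (7322 bp), Area X silent libraries had 108, 169 and 208 CPM and Area X singing libraries 87.6, 140.5, 299.9 and 221 CPM. RA silent libraries had 8.86, 84.4 and 10.3 CPM, and RA singing libraries 9.87, 56.8, 43.7 and 69.5 CPM. The RA libraries were far from alike, since RA silent 2 and RA singing 4 came within reach of the lowest Area X library, Area X singing 1. The fold toward Area X was 4.63 (log2 fold change 2.21, SE 0.50, edgeR adjusted p = 0.00275). The fold at chr7:37280894-37286111 was 3.81 (adjusted p = 0.00178), and at chr7:37210277-37215847 it was 4.06 (adjusted p = 0.00321), with 1 RA library at 83.1 CPM above the lowest Area X library at 73.1 CPM.

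At chr6:35651758-35656249 (4492 bp) the groups were better separated. Area X silent libraries had 98.0, 135 and 169 CPM, Area X singing libraries 144, 155, 207 and 185 CPM, RA silent libraries 21.3, 61.6 and 17.0 CPM, and RA singing libraries 24.2, 51.8, 40.0 and 52.2 CPM. The fold toward Area X was 4.17 (log2 fold change 2.06, SE 0.29, edgeR adjusted p = 0.000619). The fold was 4.12 at chr1A:51910582-51915893 and, at chr24:1174915-1179864, 3.56. In the latter, RA singing 4 had 26.1 CPM, among the 5 RA libraries between 25.5 and 30.4 CPM, and RA silent 2 was the highest RA library at 67.4 CPM. The domains chr4:58039157-58047725, chr2:89530690-89535273 and chr23:4748247-4752919 differed by 3.95-fold, 3.79-fold and 3.57-fold. The first of these had 593 ± 197 CPM in Area X and 156 ± 125 CPM in RA (SD, n = 7 each), the highest level among the 8 domains toward Area X.

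**Figure D4:**
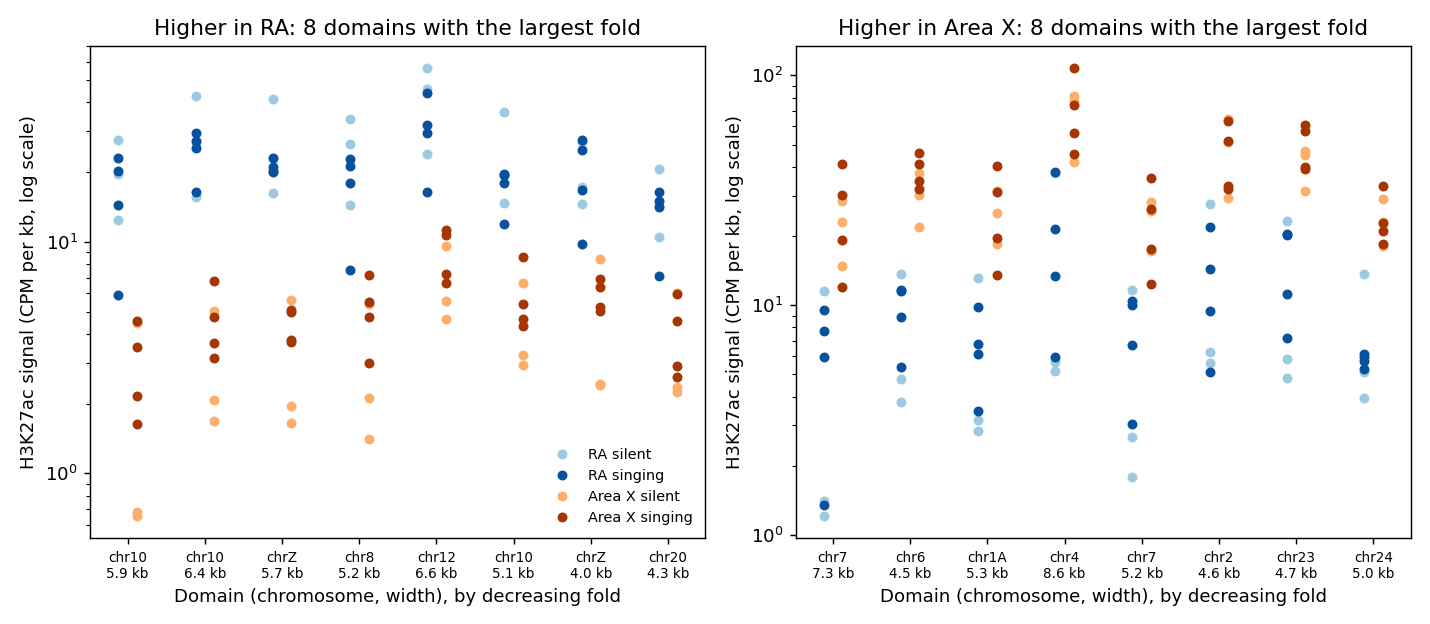
H3K27ac signal (CPM per kb, log axis) in each of the 14 libraries at the 8 domains with the largest fold toward RA (left) and toward Area X (right) among called domains whose libraries did not overlap; the horizontal axis gives chromosome and width in kb, by decreasing fold. Each column of points holds the RA libraries on its left and the Area X libraries on its right, coloured by behaviour, and no RA point crosses an Area X point within a domain.

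The widest domains went different ways. The widest, chr18:1502940-1533790 (30851 bp), had 794, 1375 and 866 CPM in RA silent libraries and 832, 871, 779.8 and 1269 CPM in RA singing libraries. It had 1638, 2264 and 2279 CPM in Area X silent libraries and 1865, 1598, 1637 and 1773 CPM in Area X singing libraries. Every Area X library was above every RA library, and RA silent 2 and RA singing 4 were the highest of RA. The fold toward Area X was 1.93 (log2 fold change 0.95, SE 0.18, edgeR adjusted p = 0.00125).

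The second widest domain, chr4A:19956393-19986302 (29910 bp), was higher in RA. Its level was 1064 ± 246 CPM in RA, with libraries from 730.2 to 1356 and a median of 1199.6 CPM, and 457 ± 76.4 CPM in Area X, with libraries from 359 to 547 and a median of 472 CPM. The libraries of the nuclei did not overlap (2.35-fold toward RA, log2 fold change -1.23, SE 0.19, edgeR adjusted p = 0.000862). The next widest, chr14:10761033-10790289 (29257 bp), had 928 ± 142 CPM in RA and 1084 ± 155 CPM in Area X (SD, n = 7 each) and did not pass (log2 fold change 0.23, 95% interval -0.12 to 0.57, adjusted p = 0.252). At chr3:39583809-39609330 (25522 bp) and chr2:26850722-26874974 (24253 bp) the level was higher in Area X by 3.23-fold and 2.87-fold (adjusted p = 0.00421 and 0.00117). At the chromosome 3 domain, RA libraries ran from 80.8 CPM in RA silent 1 to 486 CPM in RA silent 2, and the latter lay above Area X silent 1 at 468 CPM and Area X singing 1 at 330.5 CPM.

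Some domains varied little. The 5 with the smallest SD of log2 CPM over the 14 libraries had SDs from 0.14 to 0.15, against 1.82 at chr10:16338824-16344742. At chr9:4892908-4902992 (10085 bp), the level lay between 326 and 479 CPM in RA, with a median of 381, and between 346 and 428 CPM in Area X, with a median of 386. The log2 fold change was -0.04 with a 95% interval of -0.35 to 0.28 (edgeR adjusted p = 0.854). The others were chr14:1858590-1863202, chr7:1202169-1209060, chr4A:15620154-15629148 and chr14:9026951-9036073, all with intervals within 2-fold either way. They were picked for their small spread, so their likeness between nuclei is a description.

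Within silent birds, 499 domains (32.2%) were higher in Area X, against 10.3% of all regions, and 246 (15.9%) higher in RA, against 9.5% of all regions (3 libraries each). Within singing birds, 521 domains (33.6%) were higher in Area X, against 10.4% of all regions, and 193 (12.5%) higher in RA, against 8.09% of all regions (4 libraries each). No library enters both comparisons, but they share the estimate of spread in the edgeR fit. Toward Area X, 375 domains were called in both, which is 75.2% of the silent and 72.0% of the singing calls. Toward RA, 181 were called in both, 73.6% of the silent and 93.8% of the singing calls. When RA silent 2 and RA singing 4 were left out, 796 were called in both toward Area X and 266 toward RA. Calls over all regions rose too in that fit. Toward Area X they were 23.7% (silent) and 17.6% (singing), and toward RA 19.1% and 13.7%. The share of all regions called under both behaviours is not given here, with or without these libraries. Whether the overlap is particular to the domains was not tested. With all libraries, no domain was called in opposite directions, and 1485 of 1549 had the same sign.

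The counts in these smaller comparisons were not stable. They changed when single libraries were left out. In silent birds 0 domains, and 0% of all regions, were also called when only the compared groups were fitted. In silent birds, 0 domains were called without RA silent 3, Area X silent 2 or Area X silent 3, although 685, 1004 and 906 had an unadjusted p under 0.05, and without RA silent 1 only 3 were called, toward RA. Of all regions, these fits called 0% toward Area X. Toward RA they called 0.0083%, 0% and 0%, and 0.028% without RA silent 1. Without RA silent 2 the calls rose to 881 toward Area X and 303 toward RA, against 23.8% and 16.6% of all regions. In singing birds, 0 were called without RA singing 3, Area X singing 3 or Area X singing 4, with 1003, 900 and 1017 at an unadjusted p under 0.05. These singing fits called 0% of all regions too. The shares of all regions at an unadjusted p under 0.05 in the fits of this paragraph are not given here. With DESeq2, silent birds gave 655 calls toward Area X and 292 toward RA, against 14.7% of all regions each way. Singing birds gave 641 and 247, against 13.9% and 13.1% of all regions. With signal-dependent scaling in edgeR, 4.33% of the domains were called toward Area X among singing birds, below the 6.75% of all regions. Toward RA 24.1% of the domains were called, against 7.69% of all regions.

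Within each behaviour, the chromosome 10 domains kept their direction. At chr10:16288688-16295073, RA was 9.78-fold higher among silent birds (edgeR adjusted p = 0.00529) and 5.45-fold higher among singing birds (adjusted p = 0.0203), and the difference between these did not pass (unadjusted p = 0.15). The largest fold toward Area X called in singing birds was at chr3:11864543-11868754, at 5.28-fold (adjusted p = 0.0291), where Area X singing libraries had 36.9, 88.3, 225 and 168 CPM and RA singing libraries 10.4, 25.9, 29.5 and 43.5 CPM. In silent birds the fold there was 4.13 (adjusted p = 0.0511).

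The third comparison asked whether the domains differed between singing and silent birds. None passed in RA, in Area X, in their mean or in the contrast of the RA with the Area X effect, and 0% of all regions were called in each of these 4 comparisons (edgeR, all adjusted p = 1). The domains with an unadjusted p under 0.05 numbered 6, 16, 31 and 5 of 1549. As shares these were 0.39%, 1.03%, 2.00% and 0.32% of the domains, against 1.96%, 1.07%, 2.60% and 0.59% of all regions. DESeq2 also called 0 domains, with 8, 23, 37 and 5 at an unadjusted p under 0.05. Of all regions it called 1 in Area X, higher in singing birds, and 0 in the other comparisons. The shares of all regions at an unadjusted p under 0.05 with DESeq2 are not given here. The share of reads in domains was 24.3% ± 2.9 in singing and 23.5% ± 3.2 in silent RA libraries (SD, n = 4 and 3, exact permutation p = 0.686, adjusted p = 0.857). In Area X it was 29.1% ± 3.0 in singing and 29.0% ± 1.9 in silent libraries (n = 4 and 3, exact permutation p = 0.971). The two-sided p is the smaller one-sided p doubled, so with 35 labellings 4 against 3 libraries could not pass 0.05.

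The domains gave tighter bounds on a singing effect than regions at large, but only slightly tighter than the next narrower class. The median half-width of the 95% interval, on the log2 scale, was 0.70 for RA and 0.69 for Area X over the domains. It was 0.73 and 0.72 over the next narrower class, and 0.97 and 0.92 over all regions. The interval lay within 2-fold either way in 964 domains (62.2%) in RA, in 1014 (65.5%) in Area X and in 1349 (87.1%) for the mean of both nuclei. These shares were 55.0%, 58.9% and 84.6% in the next narrower class, and 26.5%, 34.8% and 62.6% over all regions. Estimates exceeded 2-fold in 0 domains in RA and 2 in Area X. The median log2 fold change of singing against silent over the domains was -0.01 in RA and 0.03 in Area X. Single libraries moved it: over the 14 fits that each left out a library it lay between -0.10 (without RA silent 1) and 0.33 (without RA silent 2) in RA, and between -0.11 (without Area X silent 1) and 0.17 (without Area X singing 1) in Area X. Without RA silent 2, 395 domains had an unadjusted p under 0.05 in RA and 0 were called, and without RA silent 2 and RA singing 4 there were 175. The share of all regions at this threshold in these fits is not given here. Whether the rise is particular to the domains was not tested.

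Libraries of the behaviours rarely separated completely. In RA, 1 domain, on chromosome 4A and described below with the smallest p values, had every singing library above every silent library, against 0.548% of all regions, and 16 had the reverse, against 1.73% of all regions. In Area X these counts were 23 domains, against 1.81% of all regions, and 16 domains, against 1.63% of all regions. As shares of 1549 domains they were between 0.0646% and 1.48%, at or below those of all regions.

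Values follow for the domains with the smallest p, none of which passed. At chr28:4251820-4256192 (4373 bp), Area X singing libraries had 109.9, 147, 256 and 202 CPM and Area X silent libraries 71.7, 72.1 and 70.3 CPM. RA singing libraries had 75.6, 110.2, 119 and 95.6 CPM and RA silent libraries 78.8, 85.3 and 132 CPM. The groups separated in Area X and overlapped in RA. The log2 fold change in Area X was 1.32 (95% interval 0.68 to 1.97, unadjusted p = 0.000403), and the singing effect exceeded that in RA by 1.30 on the log2 scale (95% interval 0.41 to 2.19).

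A second domain on the same chromosome, chr28:4233224-4237240, had 212, 195, 195 and 171 CPM in Area X singing libraries and 129, 127 and 132 CPM in Area X silent libraries, while RA singing libraries had 161, 129, 133 and 117 CPM and RA silent libraries 165, 122 and 166 CPM. The groups again separated in Area X and overlapped in RA (log2 fold change in Area X 0.58, 95% interval 0.11 to 1.06). At chr4A:16216623-16221632, every singing library was above every silent library of its own nucleus, with 129, 133, 178 and 148 against 101, 80.2 and 80.0 CPM in Area X and 138, 136, 153 and 126 against 111, 85.7 and 122 CPM in RA. It was the 1 domain separated that way in RA, and it had the smallest p for the mean of both nuclei (log2 fold change 0.57, 95% interval 0.22 to 0.92, unadjusted p = 0.00316).

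Values on chromosomes 14 and 4A were alike. At chr14:1734232-1739424, Area X singing libraries had 122, 172, 265 and 221 CPM against 97.4, 114 and 98.1 CPM in silent libraries, and at chr4A:19371648-19376421 they had 152, 131, 170 and 139.8 CPM against 94.0, 87.8 and 88.5 CPM. In both the Area X groups separated, with log2 fold changes of 0.92 and 0.72 that did not pass. At chrZ:39119404-39130693 (11290 bp), which had the second smallest p for the difference between nuclei, singing libraries were between 474 and 685 CPM in Area X and silent libraries between 358 and 430 CPM, whereas in RA singing libraries were between 456 and 561 CPM and silent libraries between 478 and 652 CPM.

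In RA the smallest p values were toward silent birds. At chr24:311414-326887 (15474 bp), RA silent libraries had 727, 777 and 1078 CPM and RA singing libraries 713, 579, 549 and 469 CPM. RA singing 1 fell just short of RA silent 1, and the other singing libraries were lower. The log2 fold change was -0.57 (95% interval -1.06 to -0.08, unadjusted p = 0.0252). The values at chr6:3144955-3149753 and chr13:10010258-10014336 were -0.69 and -0.59 on the log2 scale, and neither passed.

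Domains made up a larger part of the regions on the other placed chromosomes than on the large chromosomes. On chromosomes 1, 1A, 2 to 5 and Z together, 480 of 15012 regions (3.20%) were domains. On the other placed chromosomes 985 of 17326 (5.69%) were, and on unplaced or random sequence 84 of 3620 (2.32%). Among placed chromosomes, the share ran up to 9.45% on chromosome 28, with 36 domains of 381 regions, and was 2.51% on chromosome 2, with 75 of 2990. Single chromosomes did not all follow their class. The share was 2.50% on chromosome 21 and 2.58% on chromosome 6, but 4.45% on chromosome 5 and 3.99% on chromosome 3.

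The direction of the domains also differed between these classes. On chromosomes 1, 1A, 2 to 5 and Z, 373 domains (77.7%) were called toward Area X and 50 (10.4%) toward RA, against 32.4% and 21.1% of all regions there. On the other placed chromosomes these were 546 (55.4%) and 251 (25.5%), against 24.5% and 29.8% of all regions. As with the domains, the share of all regions called toward Area X was higher on the large chromosomes. Without RA silent 2 and RA singing 4, 381 and 53 domains were called on the former and 561 and 265 on the latter. Over all chromosomes, that fit called 30.6% and 29.1% of all regions toward Area X and RA, against 28.5% and 25.3% with all libraries. Its shares of all regions within each class are not given here. Whether the contrast of classes in that fit is particular to the domains was not tested. On chromosome 2, 69 of 75 domains went toward Area X and 4 toward RA, against 32.8% and 19.6% of its regions. On chromosome 3, with 109 domains, these were 86 and 13, against 31.2% and 23.6%. Chromosome 11 was even, with 22 domains each way of 57, against 12.9% and 40.3% of its regions.

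This split was chosen after the calls had been seen, so read ratios within libraries are given as a description, with no test. The log2 ratio of domain reads on the 7 large chromosomes to those on the other placed chromosomes was -1.12 ± 0.21 for Area X and -1.53 ± 0.25 for RA (SD over 7 libraries each). Over narrower regions it was -0.05 ± 0.10 and -0.21 ± 0.10. Base composition and gene density, which are known to differ between large and small bird chromosomes, were not examined.

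**Figure D5:**
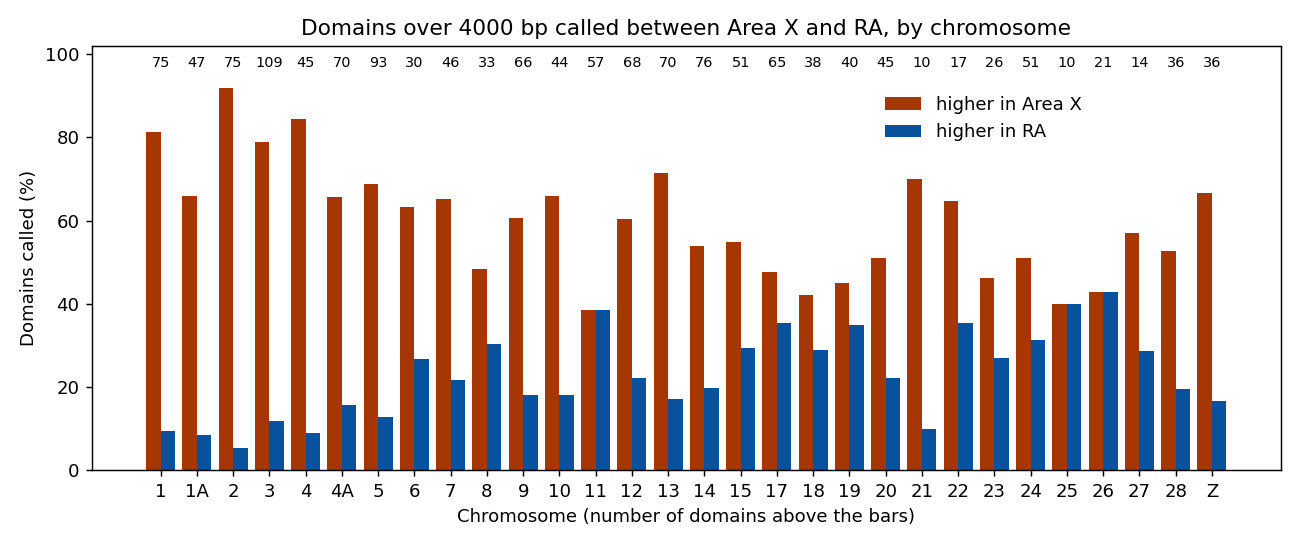
Share of the domains over 4000 bp on each chromosome with at least 10 domains that were called higher in Area X or higher in RA (%, vertical axis), averaged over behaviour; the number of domains stands above each pair of bars. On chromosome 2 the bars stand at 92% and 5.33%, and on chromosome 11 both stand at 38.6%.

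Domains lay close to other regions, as counted over the 1537 domains that were not on unplaced sequence. Another region was within 10000 bp of 93.0% of the domains, against 82.3% of the next narrower class and 74.0% of all regions. The median gap to the nearest region was 1600 bp for domains and 3272 bp for all regions, and 32.9% of domains had a neighbour within 1000 bp. A wide region takes up more of its surroundings, and the authors' joining of nearby signal is not given, so these values are a description of the list.

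The narrower regions beside a domain mostly went the same way as the domain. Up to 10000 bp to either side, 1348 domains had a narrower region as the next one, which gave 2010 pairs of a domain and a neighbour. Of the 1207 neighbours beside domains higher in Area X, 759 were themselves higher in Area X, 48 were higher in RA and 400 did not pass. Of the 436 beside domains higher in RA, 300 (68.8%) were higher in RA, 15 were higher in Area X and 121 did not pass. These neighbours in the same direction were 803 of 1248 and 334 of 463 without RA silent 2 and RA singing 4. In that fit 30.6% and 29.1% of all regions were called toward Area X and RA. Beside domains that were not called, 53 of 367 were called toward Area X and 97 toward RA. The log2 fold changes of a domain and its neighbour correlated with Pearson's r = 0.77 over these pairs, which share their libraries, and this is a description.

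Domains also followed each other. Where domains were joined when no other region lay between them and gaps were at most 10000 bp, 296 domains fell into 137 runs. Of these runs, 117 held 2 domains, 18 held 3 and 2 held 4. A run of 4, chr1:55040557-55072998, was higher in Area X in all its domains, with log2 fold changes from 1.21 to 1.77. Its summed level was 837 ± 294 CPM in Area X and 299 ± 158 CPM in RA (SD, n = 7 each). Among RA libraries it ran from 124 CPM in RA silent 1 to 513 CPM in RA singing 4, which was above Area X singing 1 at 501.4 CPM.

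The other run of 4, chr13:577213-609515, had 767 ± 82.2 CPM in Area X and 516 ± 67.7 CPM in RA, and every Area X library, from 686 to 938 CPM, was above every RA library, from 437 to 613 CPM. Of its domains 3 were higher in Area X, and the log2 fold change of the fourth was -0.23. The longest run of 3, chr18:1497153-1538660, spans 41508 bp and contains the widest domain of all. Its summed level was 2442 ± 376 CPM in Area X and 1255 ± 336 CPM in RA, and all 3 domains were higher in Area X.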

How the data were processed

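H3K27ac ChIP-seq libraries of RA and Area X from silent and singing zebra finches were analysed as read counts per region. The authors deposited raw read counts for 35958 regions in 14 libraries. SAMtools 1.1, bedtools, MACS2 2.1 and HTSeq 0.6.1 are named in the submitters' processing notes, with no role stated. Not given in the sources used here are the aligner, the genome build and the calling criteria. Input libraries were not analysed here.

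Regions with an end minus start over 4000 bp were taken as domains. The members and the lists were chosen with earlier results of these data known. Low counts were removed with filterByExpr, given the 4 groups (35954 regions kept), scaled by TMM and fitted in R 4.3.3 with edgeR 4.0.16 (robust quasi-likelihood, a mean per group, 14 libraries). The 7 contrasts were adjusted by the Benjamini-Hochberg method over all 35954 regions, with a threshold of 0.05. Each standard error is the size of the log2 fold change divided by the root of its F statistic, and intervals are at 95%. The nuclei may share birds, but their libraries were treated as independent. Read shares were tested by permuting libraries exactly (two-sided), over 3432 labellings for 7 against 7 and 35 for 3 against 4. DESeq2 1.42.0, other scalings, filters, thresholds and widths, a block for the library number, and leaving out libraries served as alternatives.

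Reads in domains ranged from 0.0562 M to 3.25 M (1e6 reads) per library, which sets the counting precision.

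Domains were named by rule: the 5 widest, the 5 densest, the 5 with the smallest SD, and for Area X against RA the 8 largest folds each way among called domains whose libraries did not overlap. The rule also takes the 2 largest called folds each way within a behaviour, the 3 smallest p for each singing contrast, the 3 longest runs, and the 3 regions on either side of 4000 bp. Only 1 of the latter is described on each side.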

Additional observations from a re-analysis of the deposited data

How the results depend on the processing

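Area X against RA averaged over behaviour, main counts 964 toward Area X and 316 toward RA, moved by over 1.5 times with TMM factors from the domains alone (529 and 512) and with signal-dependent scaling (575 and 514), which by construction center the domains or the strong regions. Leaving out each library gave 828 to 986 and 288 to 328, and without RA silent 2 and RA singing 4 there were 990 and 338. In silent birds, main counts 499 and 246, calls toward Area X were 0 at an adjusted p under 0.01, 211 with DESeq2 size factors in edgeR, 331 with total counts, 217 with TMM factors from the domains alone, 138 with signal-dependent scaling, 247 with only regions of at least median CPM, 0 with the compared groups alone and 881 without RA silent 2 and RA singing 4. Calls toward RA were 2 at an adjusted p under 0.01, 427 with TMM factors from the domains alone, 405 with signal-dependent scaling and 0 with the compared groups alone. Leaving out each library gave 0 to 881 toward Area X and 0 to 303 toward RA. Of all regions tested, 4.67% and 6.68% were called toward Area X and RA with DESeq2 size factors, and 5.32% and 13.4% with total counts. With TMM factors from the domains alone 2.13% and 26.1% were called, and with signal-dependent scaling 7.48% and 8.58%. These were 7.53% and 14.7% with the median CPM filter, and 23.7% and 19.1% without RA silent 2 and RA singing 4. In singing birds, main counts 521 and 193, calls toward Area X were 0 at an adjusted p under 0.01, 235 with total counts, 121 with TMM factors from the domains alone, 67 with signal-dependent scaling, 287 with only regions of at least median CPM and 840 without RA silent 2 and RA singing 4. Calls toward RA were 0 at an adjusted p under 0.01, 306, 373 and 374 with total counts, TMM factors from the domains alone and signal-dependent scaling, and 271 without RA silent 2 and RA singing 4. Leaving out each library gave 0 to 774 toward Area X and 0 to 253 toward RA. The causes were not tested. Without the number 1 libraries of all groups, a choice made after seeing the data, averaged counts were 864 and 325. These stood against 21.3% and 25.9% of all regions. Among the named domains, chr7:37217763-37225084 missed the threshold in singing birds with signal-dependent scaling (log2 fold change 1.63, edgeR adjusted p = 0.057).

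For the 4 comparisons with singing, 0 domains were called under every alternative run, leaving out each library included (0 to 0). The difference of Area X against RA in the share of reads in domains, 5.09 percentage points, stayed between 4.49 and 5.72 on leaving out each library. The difference between singing and silent libraries lay between -0.864 and 2.29 points in RA and between -0.881 and 1.34 in Area X, so its sign is not fixed. The log2 ratio of domains to the next narrower class differed by 0.16 to 0.21, and that of domains over 8000 bp to domains up to 5000 bp by 0.019 to 0.034. The latter passed an unadjusted exact permutation p of 0.05 without RA silent 2 and RA singing 4 (difference 0.0360, p = 0.048), on placed chromosomes alone (difference 0.0364, p = 0.0239), and without Area X silent 1, RA silent 3 or RA singing 4 (p = 0.049, 0.0303 and 0.0408). RA silent 2 and RA singing 4 were picked for their likeness to Area X, so leaving them out favours a difference. The chromosome ratios differed by 0.36 to 0.47 in domains, 0.13 to 0.18 in narrower regions and 0.21 to 0.29 between these.

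The labels give the library numbers no meaning, and the libraries did not deviate together at every number. Deviations of same-numbered libraries from their group means correlated between -0.19 and 0.69 across nuclei and between -0.01 and 0.62 across behaviours. The number 1 libraries deviated together (0.54 to 0.74), but RA silent 2 was closer to Area X silent 3 (0.55) than to Area X silent 2 (0.48), so the numbers were not taken as pairs. With the number as a replicate block, 1006 (64.9%) and 323 (20.9%) domains were called averaged over behaviour, against 31.9% and 25.5% of all regions. In silent birds there were 917 and 300, against 25.2% and 17.1% of all regions. In singing birds there were 916 and 246, against 20.2% and 10.8%. For singing against silent, 0 were called, and the share of reads differed by -0.45 points in RA and -0.60 in Area X. In the same block, Area X exceeded RA by 0.0269 in the ratio over 8000 bp (exact permutation p = 0.0312).

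Depth differed between libraries: the median domain held 29 reads in RA singing 4 and 1691 in Area X silent 3. The 95% interval of the singing effect reached past 2-fold in the domains other than 964 in RA and 1014 in Area X.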
